A study of Mus musculus with 9 samples.

Results

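Heat shock proteins and molecular chaperones were examined in whole skin of unirradiated mice. The group held every probe set whose platform annotation gives 1 gene symbol of the Hsp90, Hspa, Hspb, Hspd, Hspe, Hsph, Dnaj, Cct, Bag or Hsf families, together with Tcp1, Stip1, St13, Ahsa1, Calr and Canx. This gave 95 probe sets for 64 genes, of the 8251 genes that the array reads with a probe set of 1 symbol. Ahsa1, Hsf1 and Hsp90ab1 matched no such probe set.

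The samples were 5 Cd1d knockout mice (Cd1d -/-) and 4 wild-type mice (Cd1d +/+), all of C57BL/6 background, matched for age and sex, and not exposed to UVB. Each mouse was a separate sample on its own Affymetrix MG-U74 array. CD1d is a cell-surface molecule that shows lipid antigens to natural killer T cells, which mice without it lack. Age, sex and the design of the deleted allele are not stated in the labels. The comparison asks how skin differs at baseline when CD1d is missing.

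Chaperones bind unfolded proteins and keep them from aggregating. HSP70 takes up unfolded chains that J-domain proteins deliver, and BAG and HSP110 proteins release them by nucleotide exchange. HSP90 matures kinases and hormone receptors, TRiC folds actin and tubulin in its chamber, and HSP60 with HSP10 does this for proteins imported into mitochondria. Heat shock factor switches on the inducible members by binding repeated GAA units, while the endoplasmic reticulum has its own set under the unfolded protein response.

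The promoters below show these control elements for the members to which the results return. RefSeq promoter windows (GRCm38.p6) were found for 55 of the 64 genes, and the 250 bases before the annotated start were searched on both strands. A pair of facing units (GAANNTTC or TTCNNGAA, which can overlap each other) was present in 14 of 69 member windows (20.3%) and in 12.8% of all 32851 windows. The longer run in which GAANNTTC is followed by NNGAA was present in 4 member windows (5.80%), against 0.466% of all windows, and these belong to Hspd1, Hspe1 and Dnajb6. Dnajb6 has more than 1 of these windows, and those of Hspd1 and Hspe1 cover the same interval, so a site can be counted more than once. The endoplasmic reticulum stress element, CCAAT and CCACG with 9 unspecified bases between them, was present in 5 member windows (7.25%), against 0.113% of all windows. Those 5 belong to Hspa5, Hsp90b1, Calr, Canx and Dnajc3, each a chaperone of that compartment. A match describes letters only and does not show a bound site. Capitals mark the facing units in the first 5 sequences and the stress element in the last 2.
Hspd1 to Hspe1 interval (chr1:55087933-55088147, plus strand): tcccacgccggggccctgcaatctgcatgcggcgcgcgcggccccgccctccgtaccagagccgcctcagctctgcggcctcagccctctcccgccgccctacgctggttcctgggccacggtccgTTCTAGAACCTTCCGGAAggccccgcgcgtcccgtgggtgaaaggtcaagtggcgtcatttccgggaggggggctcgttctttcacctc
Dnajb6 (chr5:29735648-29735897, plus strand): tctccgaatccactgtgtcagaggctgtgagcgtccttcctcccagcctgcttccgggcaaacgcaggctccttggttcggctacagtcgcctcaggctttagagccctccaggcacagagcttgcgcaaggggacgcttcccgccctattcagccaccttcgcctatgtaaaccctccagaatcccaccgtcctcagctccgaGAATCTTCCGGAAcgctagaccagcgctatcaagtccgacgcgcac
Hsph1 (chr5:149636337-149636586, minus strand): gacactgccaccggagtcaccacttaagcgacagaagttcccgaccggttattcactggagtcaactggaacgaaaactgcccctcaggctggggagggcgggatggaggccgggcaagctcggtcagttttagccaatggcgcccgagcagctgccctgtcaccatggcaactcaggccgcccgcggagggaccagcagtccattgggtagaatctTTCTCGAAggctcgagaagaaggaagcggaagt
Hspa1b (chr17:34959239-34959488, minus strand): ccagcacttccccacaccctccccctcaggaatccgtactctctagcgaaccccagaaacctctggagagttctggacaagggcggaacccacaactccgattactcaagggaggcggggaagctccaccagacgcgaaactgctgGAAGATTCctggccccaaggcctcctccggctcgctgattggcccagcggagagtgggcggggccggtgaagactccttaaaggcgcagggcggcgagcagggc
Hspa1a (chr17:34972157-34972406, minus strand): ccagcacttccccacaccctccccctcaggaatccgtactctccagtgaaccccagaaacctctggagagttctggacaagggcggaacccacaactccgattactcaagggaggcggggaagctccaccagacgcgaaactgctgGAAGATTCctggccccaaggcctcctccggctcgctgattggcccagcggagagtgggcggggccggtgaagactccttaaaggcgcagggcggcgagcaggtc
Hspa5 (chr2:34771840-34772089, plus strand): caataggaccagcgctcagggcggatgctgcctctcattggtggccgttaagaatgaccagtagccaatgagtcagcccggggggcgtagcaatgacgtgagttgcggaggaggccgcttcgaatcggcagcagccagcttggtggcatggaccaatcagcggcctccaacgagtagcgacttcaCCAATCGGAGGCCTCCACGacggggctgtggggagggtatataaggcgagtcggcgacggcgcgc
Hsp90b1 (chr10:86705445-86705694, minus strand): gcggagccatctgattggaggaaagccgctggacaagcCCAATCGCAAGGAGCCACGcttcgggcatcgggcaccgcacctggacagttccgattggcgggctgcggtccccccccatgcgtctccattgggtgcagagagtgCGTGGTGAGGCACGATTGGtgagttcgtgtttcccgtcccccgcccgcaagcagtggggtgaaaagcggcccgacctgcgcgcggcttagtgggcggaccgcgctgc
The first sequence is the whole 215 bases between the start of Hspe1 and the facing start of Hspd1, so these genes share 1 promoter region head to head. RefSeq lists 2 starts of Hspd1, and the other one lies beyond the Hspe1 start. Hspa1a and Hspa1b are identical at 247 of these 250 bases, and their transcripts are near copies too, so a probe set of one may also read the other.

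Of the 95 probe sets 77, for 57 genes, were bright enough to be tested. A probe set was kept where at least 4 arrays read it at or above their own 40th percentile, a signal of 43.4 to 53.3 in arbitrary MAS5 units. The other 18 had group means between 3.16 and 48.8 in knockout skin and between 1.23 and 43.5 in wild-type skin, and they were not tested. Calr (calreticulin, a lectin chaperone), Hspb1 (the small heat shock protein HSP25 of mouse), Hsf2 (a heat shock factor), Dnajb3, Dnajb5, Dnajb8 and Dnajc11 had no kept probe set. Dim signal of a probe set does not show that its gene is silent: Hspb1 read 13.6 ± 6.62 in knockout mice against 6.30 ± 4.48 in wild-type mice, and Calr 5.46 ± 3.11 in knockout mice against 4.62 ± 4.21 in wild-type mice (here and below mean ± SD, n = 5 and n = 4).

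The targeted gene separated the groups: the Cd1d1 probe set read 47.6 to 79.6 in knockout and 91 to 130 in wild-type skin, which checks the labels. Epidermal markers, 11 of 14 genes kept, summed to 21695 to 35476 in knockout skin, against 23547 to 25738 in wild-type skin. Dermal fibroblast markers (10 genes) summed to 18158 to 28891 in knockout skin, against 17772 to 24461 in wild-type skin. Hair follicle markers (15 genes) were high in knockout 1, 2 and 5, with summed signals of 13701, 35967 and 27955, and low in knockout 3 and 4 (2292 and 1413), against 1491 to 3504 in the wild-type mice. Macrophage and dendritic cell markers (18 genes) summed to 17887 to 22961 in knockout skin, against 22826 to 27331 in wild-type skin. The part of these cells in the chaperone values was not tested except where a value is given.

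No chaperone passed the test. In limma, with Benjamini-Hochberg adjustment over all 7658 kept probe sets, 0 of the 77 reached an adjusted p under 0.05 (background 0.0522%, 0.0261% higher and 0.0261% lower), and the smallest adjusted p was 0.363. At an unadjusted p under 0.05 there were 9 member probe sets, 6 with higher and 3 with lower values in knockout skin. That is 11.7% of them, beside a background of 9.4% of all probe sets (5.45% higher and 3.96% lower). The groups did not overlap for 1 member probe set (1.30%), where the background is 3.21% (1.83% higher and 1.38% lower). The share by p is close to that of the array as a whole and the other is under it.

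Log2 differences (knockout minus wild type) of the 77 had a median of 0.08, with quartiles of -0.10 and 0.26, while the median over all probe sets was 0.01. They ran from -0.48 to 0.63. Values above 0 were found for 49 members (63.6%), beside a background of 51.2% of all probe sets (48.8% below 0). The widest 95% interval of a probe set with a plain _at name, that of Hspa14, spanned -0.05 to 1.32. In whole skin, fewer cells of a type and less RNA per cell cannot be told apart.

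**Figure D1:**
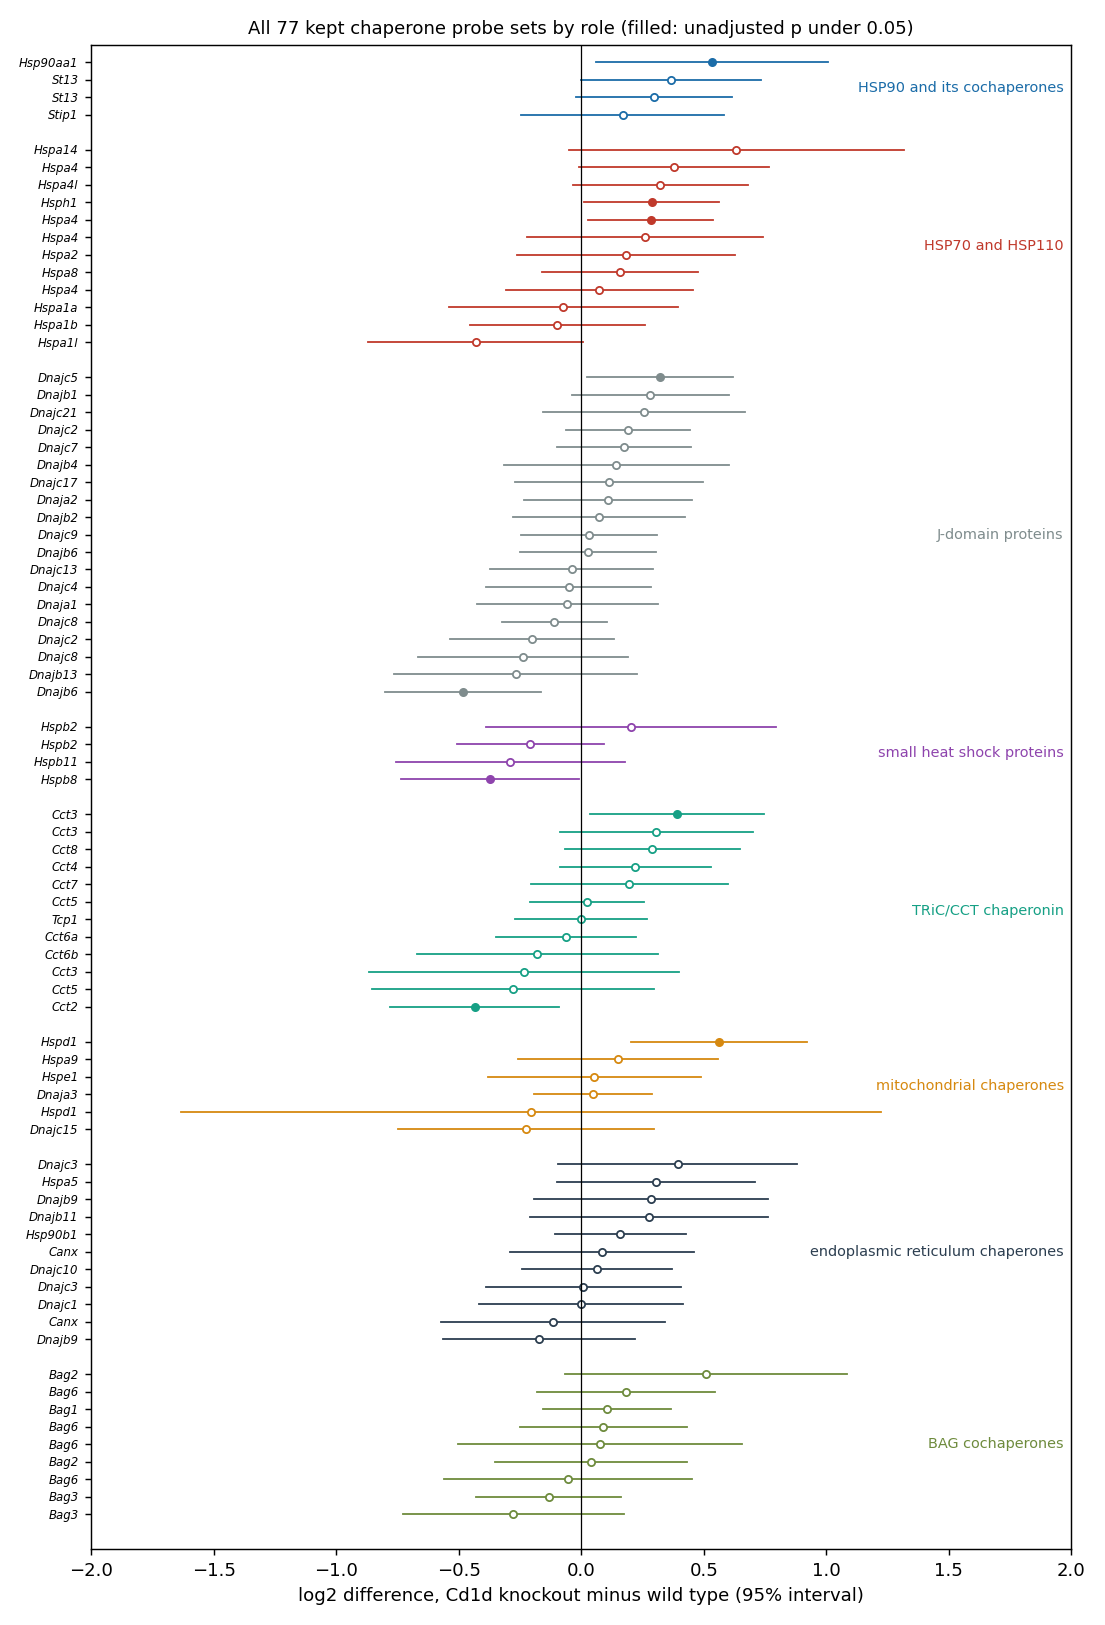
Log2 difference (x axis, knockout minus wild type) of each of the 77 kept chaperone probe sets (rows, grouped by role), with 95% intervals from limma. Filled points are the 9 with an unadjusted p under 0.05, and 0 passed after adjustment. All 4 points of the role of HSP90 and its cochaperones, which holds 3 genes, lie to the right of 0. Those of the TRiC subunits lie on both sides.

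The cytosolic HSP90 system had the highest median of the roles, 0.33 over 4 probe sets of 3 genes, all above 0. Other HSP90 cochaperones were placed in the list of prefoldin and further cochaperones, given below. There 13 of 22 kept probe sets were above 0, with a median of 0.005, and Fkbp5 gave -0.37, Ppid 0.39 and Unc45a 0.21. Hsp90aa1, the stress-inducible HSP90, read 902.4, 1062, 669.3, 1138.1 and 1046.7 in knockout 1 to 5, against 780.6, 756.3, 409.6 and 759.5 in wild type 1 to 4. Knockout 3 lay inside the wild-type range, and the other knockout mice above it. The log2 difference was 0.53 (SE 0.22, exact permutation p = 0.0635, limma adjusted p = 0.486). Wild type 3 was far below its group, and without that mouse the difference was 0.31. St13, which helps HSP70 hand clients to HSP90, was read by a pair of probe sets with like differences of 0.37 (132 ± 16.5 in knockout against 104 ± 18.7 in wild-type mice) and 0.30 (309 ± 31.1 in knockout against 254 ± 42.9 in wild-type mice). Stip1, the adaptor that holds HSP70 and HSP90 together, read 179 ± 35.1 in knockout mice against 159 ± 34.7 in wild-type mice, a log2 difference of 0.17 (95% interval -0.24 to 0.58). Their limma adjusted p values were 0.531, 0.566 and 0.806. The median of this role per mouse was 0.16, 0.34, -0.16, 0.38 and 0.01 in knockout 1 to 5 against -0.02, 0.004, -0.58 and -0.13 in wild type 1 to 4, on a log2 scale centred over the 9 mice. Without wild type 3 the median difference of the role was 0.20. Dermal fibroblast markers had medians of 0.18, 0.23, -0.37, 0.39 and 0.24 in knockout 1 to 5, against 0.16, 0.17, -0.38 and -0.55 in wild type 1 to 4. Knockout 3, wild type 3 and wild type 4 were the 3 lowest mice for both. Among the other mice the order differed: knockout 5 lay above knockout 1 and 2 for the fibroblast markers, and below both for the HSP90 role. The part of fibroblasts in the HSP90 values was not tested.

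Among HSP70 and HSP110 proteins 9 of 12 kept probe sets had values above 0, with a median of 0.22. The members with the smallest p were exchange factors of the HSP110 type. Hspa4 at 1 of its plain probe sets read 404.1, 388.6, 413.3, 353.9 and 366 in knockout 1 to 5, against 366.9, 304.6, 298.3 and 298.9 in wild type 1 to 4, so wild type 1 alone reached the knockout range. Its log2 difference was 0.28 (SE 0.12, exact permutation p = 0.0238, limma adjusted p = 0.498). The 3 other kept Hspa4 probe sets gave 0.38, 0.26 and 0.07. Hsph1, the inducible HSP110, read 281.1, 297.3, 257.9, 277 and 292.4 in the knockout mice, against 239.7, 269.6, 222.8 and 194.4 in the wild-type mice. Wild type 2 alone reached the knockout range. The log2 difference was 0.29 (SE 0.13, exact permutation p = 0.0159, limma adjusted p = 0.518). Hspa4l, a further relative, read 164 ± 34.5 in knockout against 130 ± 13.9 in wild-type mice (0.32, adjusted p = 0.574), and the ribosome-linked Hspa14 read 85.4 ± 31.5 in knockout against 54.9 ± 18.6 in wild-type mice (0.63, adjusted p = 0.566).

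The heat-inducible HSP70 pair had no settled direction. Hspa1b read 987.7, 1095.5, 1581.9, 1342.3 and 1211.1 in knockout 1 to 5, against 1272.5, 1470.6, 1023.4 and 1549.6 in wild type 1 to 4. Hspa1a read 694.3, 762.9, 1232.7, 1285.2 and 1097 in the knockout mice, against 1028.9, 1345.2, 787.7 and 1049.5 in the wild-type mice. For both, knockout 1 and 2 were the lowest knockout mice, wild type 3 was the lowest wild-type mouse, and the groups overlapped. Log2 differences were -0.10 (95% interval -0.46 to 0.26) and -0.07 (-0.54 to 0.39), with limma adjusted p values of 0.884 and 0.945. With 1 mouse left out Hspa1a ran from -0.20 to 0.05, above 0 without knockout 1, knockout 2 or wild type 2, and Hspa1b from -0.22 to -0.02. With hair follicle markers in the fit they were 0.16 and 0.06, and within the arrays deposited with 7 decimals -0.51 and -0.35. Immediate early genes, whose messages climb quickly when tissue is handled, had medians per mouse of -0.16 to 0.25 in knockout and -0.31 to 0.11 in wild-type skin, and their part in these values was not tested. Hspa8, the constitutive HSP70, read 969 ± 150 in knockout mice against 868 ± 138 in wild-type mice (0.16, adjusted p = 0.778). Hspa1l, a relative known mainly from testis, had the lowest difference of this role, -0.43 (119 ± 29.7 in knockout against 158 ± 29.3 in wild-type mice, adjusted p = 0.544), and Hspa2, also known mainly from testis, differed by 0.18.

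**Figure D2:**
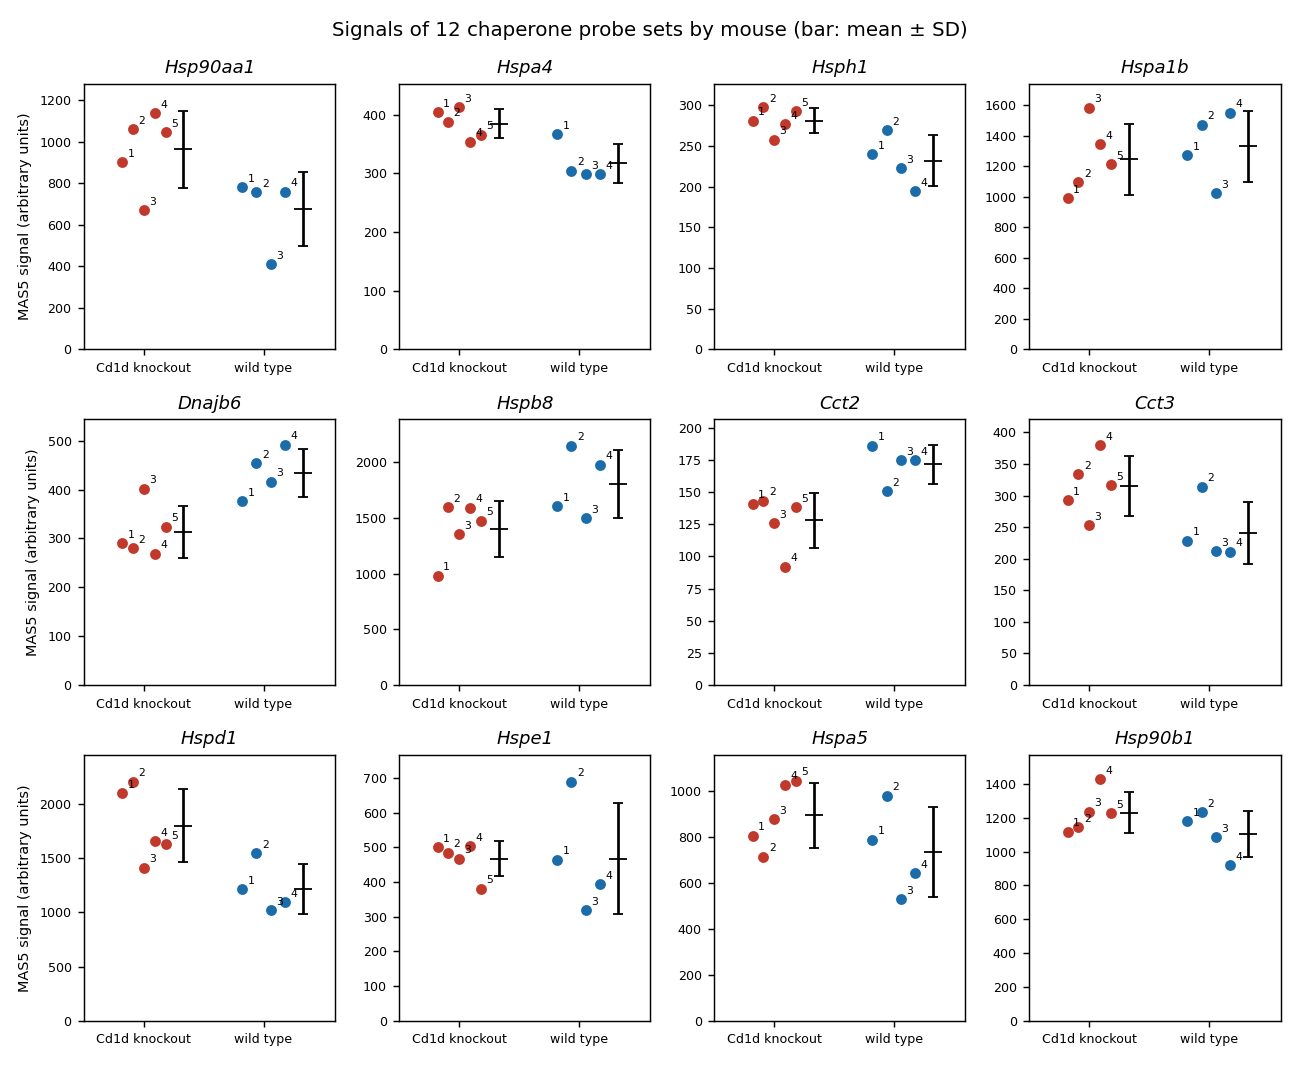
MAS5 signal (y axis, arbitrary units, from 0) of 12 chaperone probe sets in each mouse, knockout left and wild type right; points carry the mouse number and bars give the mean ± SD (n = 5 and n = 4). The groups separate without overlap for Cct2 alone, while Hspa1b, Hspe1 and Hsp90b1 overlap broadly.

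J-domain proteins, which bring clients to HSP70, had a median of 0.03 over 19 kept probe sets, 11 above 0 and 8 below. The smallest p belonged to Dnajb6, a suppressor of protein aggregation, at 1 of its 2 probe sets. There it read 290.4, 279.7, 401.5, 269 and 324.2 in knockout 1 to 5, against 376.8, 454, 416.5 and 491.7 in wild type 1 to 4. Knockout 3 alone lay within the wild-type range. The log2 difference was -0.48 (SE 0.15, exact permutation p = 0.0238, limma adjusted p = 0.370). The second Dnajb6 probe set read 617 ± 56.8 in knockout mice against 608 ± 81.1 in wild-type mice, a difference of 0.03 (95% interval -0.25 to 0.30). Dnajb6 therefore has no single direction here, and which transcripts each probe set reads is not given in the sources used here. Dnajc5, the cysteine string protein of secretory vesicles, read 257 ± 27.6 in knockout against 206 ± 29.9 in wild-type mice (0.32, adjusted p = 0.507). Dnajb1, the main partner of inducible HSP70, read 349 ± 44.1 in knockout against 289 ± 47.3 in wild-type mice (0.28, adjusted p = 0.576), and Dnaja1 600 ± 140 in knockout against 613 ± 55.2 in wild-type mice (-0.06, adjusted p = 0.945).

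Small heat shock proteins were the 1 role with a median below 0, at -0.25 over 4 kept probe sets, 3 of them below 0. Hspb8, which works with Bag3 to send misfolded proteins to autophagy, read 982.7, 1600.5, 1358, 1592.8 and 1478.3 in knockout 1 to 5, against 1604.6, 2151.4, 1497 and 1978.9 in wild type 1 to 4. Knockout 1 was the lowest and wild type 2 the highest, and 2 knockout mice lay above the lowest wild-type mouse. The log2 difference was -0.37 (SE 0.17, exact permutation p = 0.0873, limma adjusted p = 0.520). Hspb2, a partner of a muscle kinase, read 720 ± 52.3 in knockout against 840 ± 161 in wild-type mice at 1 probe set (-0.21) and 100 ± 19.1 in knockout against 91.5 ± 42.7 in wild-type mice at the other (0.20). Hspb11, named in this family but known as a part of the transport machinery of cilia, read 67.9 ± 12.7 in knockout against 83.8 ± 22.0 in wild-type mice (-0.29). Skeletal muscle also expresses Hspb2 and Hspb8. The summed signal of 21 muscle genes was 58541 to 73019 in knockout skin, against 64032 to 98713 in wild-type skin, lowest in knockout 1 and highest in wild type 2. Wild type 2 also had the highest signal of all mice for each of the 4 small heat shock protein probe sets. Among the knockout mice, knockout 1 had the lowest muscle median (-0.28) and the highest small heat shock protein median (0.07). Knockout 5 had a muscle median of -0.20 and the lowest small heat shock protein median (-0.19). The part of muscle in these medians was not tested. Without wild type 2 the median difference of the role was -0.10, and with no filter on low signals it was -0.09. Fitted together with each mouse's muscle median, the Hspb8 difference was -0.22 (limma adjusted p = 0.744).

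Bag3, the exchange factor that binds Hspb8, had values below 0 at both probe sets, -0.13 (359 ± 55.2 in knockout against 390 ± 23.8 in wild-type mice) and -0.28 (182 ± 55.8 in knockout against 213 ± 21.9 in wild-type mice), with limma adjusted p values of 0.795 and 0.719. Bag1, the first described member, differed by 0.11 (356 ± 34.4 in knockout against 330 ± 26.8 in wild-type mice, adjusted p = 0.809). Bag2, which inhibits the ubiquitin ligase CHIP, gave 0.51 at an _r_at probe set (394 ± 93.4 in knockout against 283 ± 98.9 in wild-type mice, adjusted p = 0.576) and 0.04 at its plain one. The 4 probe sets of Bag6, a chaperone of membrane proteins, ran from -0.06 to 0.18.

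The TRiC chaperonin is a double ring of paired subunits encoded by Tcp1 and the Cct genes. Its 12 kept probe sets split evenly, 6 above and 6 below 0, with a median of 0.01. Cct2 read 140.9, 143.3, 125.8, 92.1 and 138.1 in knockout 1 to 5, against 185.9, 150.5, 174.6 and 174.9 in wild type 1 to 4, and was the 1 chaperone whose groups did not overlap. Its log2 difference was -0.44 (SE 0.16, limma adjusted p = 0.443). Its exact permutation p was 0.00794, the smallest that 5 against 4 arrays can give. The exact p values printed here are two-sided and unadjusted, over 77 members. Cct3 pointed the other way at its plain probe set, with 292.3, 333.9, 252.8, 380 and 316.4 in the knockout mice, against 228.4, 314.2, 212 and 211.4 in the wild-type mice (0.39, adjusted p = 0.500). Its other probe sets gave 0.31 and -0.23. Cct8, Cct4 and Cct7 gave 0.29, 0.22 and 0.20, and Cct6b and Cct6a -0.18 and -0.06. Cct5 at 1 plain probe set read 1088 ± 34.0 in knockout mice against 1074 ± 119 in wild-type mice (0.02, 95% interval -0.21 to 0.26), and at the other 68.2 ± 25.6 in knockout against 80.4 ± 19.2 in wild-type mice (-0.28, interval -0.86 to 0.30). Tcp1 read 129 ± 9.84 in knockout mice against 129 ± 4.60 in wild-type mice (-0.001, interval -0.27 to 0.27). The subunits had no common direction.

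Hspd1 and Hspe1, the genes of mitochondrial HSP60 and its lid HSP10, are transcribed from the shared promoter region printed above. Hspd1 had the smallest p of all members, with 2098.3, 2203.4, 1412.2, 1653.9 and 1626.4 in knockout 1 to 5, against 1214.7, 1542.4, 1017.2 and 1091.5 in wild type 1 to 4. Knockout 3 lay below wild type 2, and all other knockout mice above every wild-type mouse. The log2 difference was 0.56 (SE 0.16, exact permutation p = 0.0317, limma adjusted p = 0.363), a fold of 1.48. Cell cycle genes had values above 0 at 29 of 32 kept probe sets, with a median difference of 0.45 and none past the test. Their medians were 0.86, 0.48, -0.25, 0.03 and 0.004 in knockout 1 to 5, against 0.19, -0.02, -0.39 and -0.60 in wild type 1 to 4, so knockout 1 and 2 were highest for these as for Hspd1. Knockout 4 and 5 lay below wild type 1 for the cell cycle genes, but above every wild-type mouse for Hspd1. The part of dividing cells in the Hspd1 values was not tested. Hspe1 read 499.6, 484.5, 466.7, 503.3 and 380.9 in the knockout mice, against 464.1, 689.2, 318.8 and 394.4 in the wild-type mice, and the groups overlapped (0.05, SE 0.20, adjusted p = 0.958). Whether the differences of the 2 genes differ from each other was not tested. A second Hspd1 probe set, an _r_at set near the filter signal, read 50.02 ± 32.3 in knockout mice against 52.1 ± 27.6 in wild-type mice, with an interval of -1.63 to 1.22. It had the largest residual SD of all members, above 99.3% of all probe sets. Hspa9, the HSP70 of mitochondria, read 843 ± 212 in knockout mice against 749 ± 122 in wild-type mice (0.15, adjusted p = 0.832), and its J-domain partner Dnaja3 409 ± 27.3 in knockout mice against 395 ± 24.1 in wild-type mice (0.05, adjusted p = 0.920).

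Of 11 kept probe sets of endoplasmic reticulum chaperones 8 had values above 0, with a median of 0.09 and no unadjusted p under 0.05. Hspa5, or BiP, the HSP70 of this compartment, read 807.1, 714.7, 878.8, 1028.6 and 1045 in knockout 1 to 5, against 789.6, 981.3, 530.8 and 642.9 in wild type 1 to 4. Its groups overlapped, with knockout 4 and 5 the highest mice (0.30, SE 0.18, limma adjusted p = 0.644). Hsp90b1, the HSP90 of the compartment, read 1230 ± 121 in knockout against 1104 ± 138 in wild-type mice (0.16, adjusted p = 0.721). Dnajc3 gave 0.39 at 1 probe set and 0.01 at the other, and the membrane lectin Canx -0.12 and 0.09. Among the kept probe sets of genes with a stress element in their promoters, only a Canx probe set lay below 0 (-0.12), and none passed the test. Calr, which also has the element, had no kept probe set. Knockout 4 had the highest median of this role, 0.25, where the other 8 mice ran from -0.12 to 0.08. For members with a pair of facing GAA units in a promoter window, 7 of 14 kept probe sets lay above 0, with a median of -0.02. For members with a window but no such pair, 33 of 52 did, with a median of 0.08. Over all probe sets 51.2% lay above 0. Whether either element goes with the differences was not tested.

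Other genes of protein folding were taken from lists of prefoldin and further cochaperones and of the unfolded protein response. In the first list 13 of 22 kept probe sets were above 0, with a median of 0.005, and in the second 14 of 26, with a median of 0.03. None passed limma's test (0 of 48), while 1 of the first list (4.55%) and 5 of the second (4 higher and 1 lower, 19.2%) had an unadjusted p under 0.05, where 9.4% of all probe sets had. The 1 lower was Atf4, a transcription factor of the stress response (-0.26, adjusted p = 0.517), and Sel1l, of the export machinery, was among the higher (0.34, adjusted p = 0.524). The groups did not overlap for 1 probe set of the first list (4.55%) and 2 of the second (7.69%), where the background is 3.21%. Pdia6, a disulfide isomerase of the endoplasmic reticulum, read 347, 335.9, 312.4, 444.4 and 340.4 in knockout 1 to 5, against 275, 295.6, 176.9 and 204.9 in wild type 1 to 4, with no overlap. Its log2 difference was 0.60 (SE 0.17, limma adjusted p = 0.363), and a second probe set gave 0.63 (adjusted p = 0.413). Both Pdia6 probe sets were among the 4 higher, so this gene was counted more than once in that share. Derl1, a channel for the export of misfolded proteins, read 319 ± 38.7 in knockout against 256 ± 29.1 in wild-type mice (0.32, adjusted p = 0.505), also with no overlap. Ppid, an HSP90-bound cyclophilin, read 178 ± 27.8 in knockout against 135 ± 5.48 in wild-type mice (0.39, adjusted p = 0.437), again with no overlap. Fkbp5, an HSP90 cochaperone induced by glucocorticoids, read 422 ± 84.3 in knockout against 555 ± 159 in wild-type mice (-0.37, adjusted p = 0.619). Unc45a, a myosin chaperone that binds HSP90, gave 0.21 (adjusted p = 0.676).

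Some mice stood apart over many chaperones. Knockout 4 had the highest value of the 9 mice for 27 of the 77 probe sets (35.1%), where it did so for 21.1% of all probe sets. Wild type 3 had the lowest value for 21 (27.3%), against 10.2% of all probe sets. Knockout 3 was the knockout mouse nearest to the wild-type range for several members. Without knockout 3 the groups did not overlap for 10 members, 7 higher and 3 lower (13.0%), where 6.63% of all probe sets did not overlap. These 10 included Hspd1, Hsp90aa1, Hsph1, St13, Dnajb6 and Cct2. Even so, 0 members passed limma's test without knockout 3, and the smallest adjusted p was 0.197. The count of 10 was the largest from leaving out 1 mouse. It follows in part from leaving out the mouse nearest to the other group, so no conclusion is drawn from it. Without knockout 1, 2 or 5 the groups did not overlap for 1 member (1.30%), where 4.28%, 4.44% and 4.27% of all probe sets did not.

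**Figure D3:**
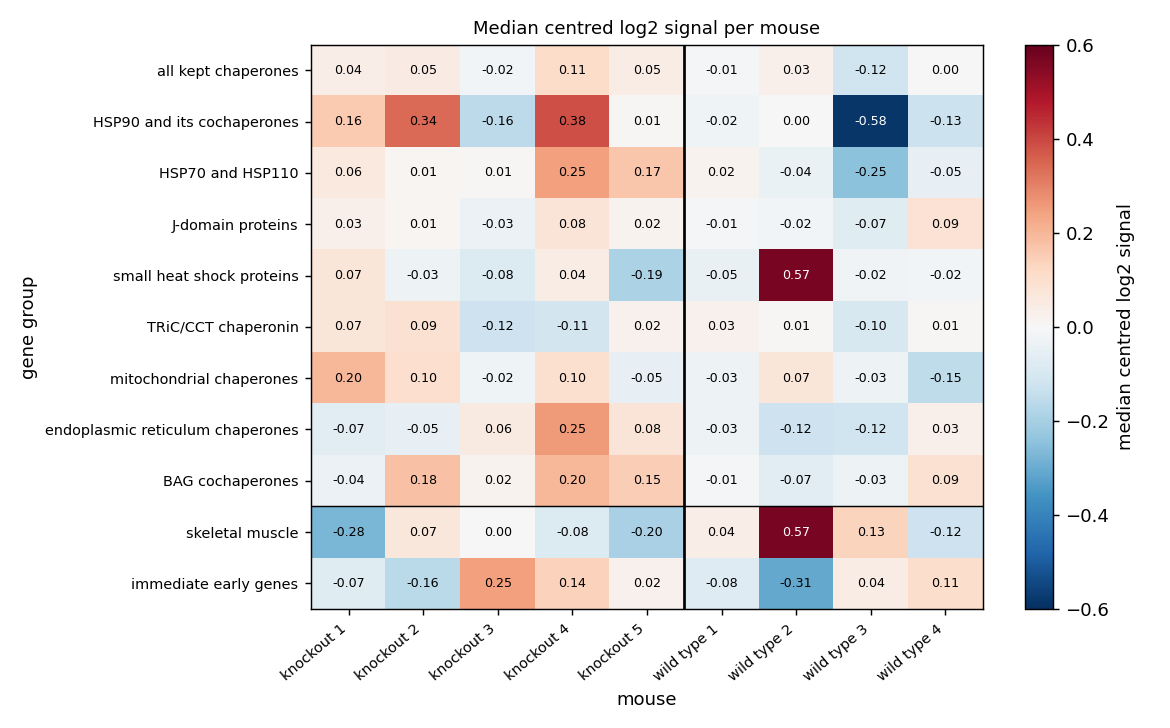
Median log2 signal (colour and printed value, centred on the mean of the 9 mice) of all 77 kept chaperones, of each role and, below the line, of the skeletal muscle and immediate early lists, in each mouse. Wild type 3 is lowest for HSP90 and its cochaperones (-0.58), and wild type 2 is highest for both small heat shock proteins (0.57) and skeletal muscle (0.57).

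Spread among mice within a genotype was like that of the array at large. The median residual SD was 0.26 on the log2 scale for the members and 0.27 over all probe sets. Several members were among the steadiest: a probe set of the splicing-linked Dnajc8 had a residual SD of 0.08, Tcp1 0.09, Dnaja3 0.09 and 1 Cct5 probe set 0.11, while the other Cct5 probe set had 0.42. The 95% interval of Dnaja3, for example, was -0.19 to 0.29.

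Probe sets of the same gene did not always share a sign. Of 15 genes with more than 1 kept probe set, 6 had log2 differences of 1 sign and 9 had differences of both signs. St13 and Hspa4 gave values above 0 at every kept probe set, and Bag3 and Dnajc8 values below 0. Under the alternatives described below, 1 Hspa4 probe set (0.07 here) changed sign in 4, and 1 Bag3 probe set (-0.28 here) in 1. Hspd1, Dnajb6 and Cct3, which include 3 of the 9 probe sets with an unadjusted p under 0.05, were among the genes with both signs. Names ending in plain _at mark probe sets designed to be specific, and the other endings mark sets made under relaxed rules, which can be less specific. Of the kept members 61 were plain and 16 were not.

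**Figure D4:**
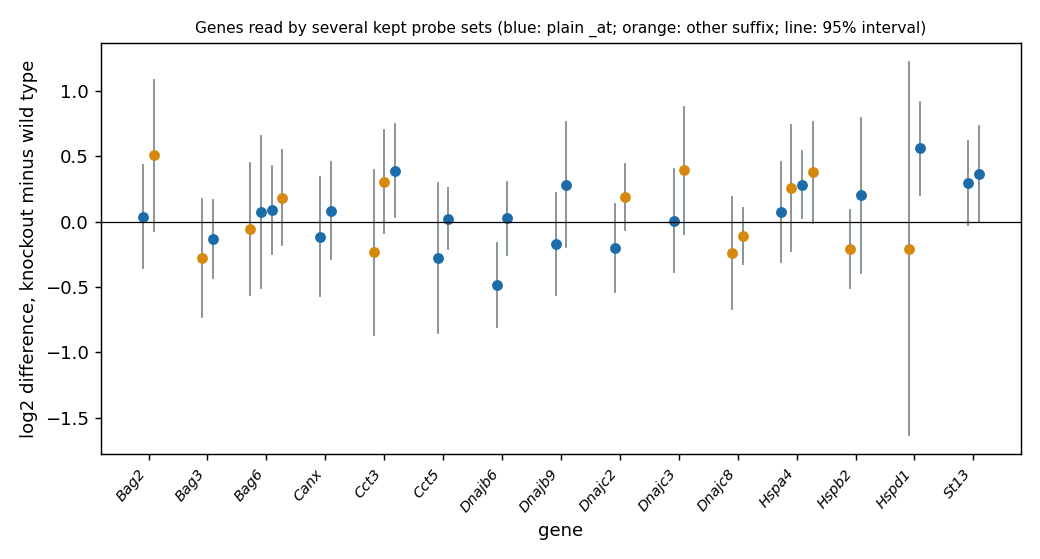
Log2 difference (y axis, knockout minus wild type, with 95% intervals) of every kept probe set of the 15 chaperone genes that have more than 1. Blue points are plain _at probe sets and orange ones have another ending. All points of St13 and Hspa4 lie above 0, though most of their intervals reach below 0, and Dnajb6 and Cct3 do not keep 1 direction.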

How the data were processed

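Whole skin RNA of 5 Cd1d knockout and 4 wild-type mice was read on 1 array each. The deposited values are natural log signals from Microarray Suite 5.0, per the labels. The log base was read from the values: 100% of their exponentials are whole multiples of 0.1 (within 0.02 of a step), and the trimmed mean signal of each array lies between 200.11 and 200.133. They were turned into log2 signals without further normalization or pseudocount, and 1 value was missing. After removal of 66 AFFX controls from 12488 probe sets and the filter given above, 7658 went into limma 3.58.1 under R 4.3.3 (lmFit, then eBayes with trend; two-sided, threshold 0.05). The number of mice limits precision. In simulated arrays of this size the procedure recovered 28.7% of 1.5-fold changes, 70.4% of 2-fold changes and 95.4% of 4-fold changes. The simulated noise was independent between probe sets, and the number of changed probe sets was set beforehand. Neither need hold for the real arrays, so these shares are not the chances of finding a changed chaperone here.

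The members and lists were chosen with earlier results of these data known. Named were the 12 members with the smallest p, the first of each role, a core set of 24 genes, genes whose probe sets differed in sign, the 5 largest spreads and 3 members of each further list; other genes were named after their values were seen. Alternatives changed scaling, pseudocount, filter, variance model, covariates and replicates.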

Additional observations from a re-analysis of the deposited data

Results flagged for a closer look

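Single mice far from the rest of their group were sought in 98 groups of values (the named member probe sets, and the medians of all members and of each role). At a rate of 1 in 20 about 4.9 would be marked, and 8 were found. That rate need not hold here, because some probe sets were named for their spread or small p and the medians share probe sets. No conclusion is drawn from the count. Knockout 4 stood apart for Bag1, at 416.2 with the next mouse at 347.5, and for the _r_at probe set of Bag2, at 230.3 with the next at 407.4. Knockout 5 stood apart for Hspe1, at 380.9 with the next at 466.7. Wild type 3 stood apart for Hsp90aa1, at 409.6 with the next at 756.3, and for the TRiC median, at -0.10 with the next at 0.01. Wild type 1 stood apart for Hspa4, at 366.9 with the next at 304.6, and for Bag3, at 354.8 with the next at 399.4. Wild type 2 stood apart for the small heat shock protein median, at 0.57 with the next at -0.02.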

How the results depend on the processing

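Of 23 alternatives 20 were planned, and treating the decimals of the deposited values as a block, keeping the arrays with 7 decimals and keeping plain _at probe sets were chosen after seeing the data. In none of the 23 did a member or a gene of the further lists pass limma's test. The member median stayed between 0.05 and 0.13. Of 1042 values of named probe sets 1035 moved by less than their residual SD and 44 changed sign; 30 of the 46 named probe sets kept their sign throughout. The members with an unadjusted p under 0.05 were 16 with array weights (20.8%, against 13.6% of all probe sets), where the smallest adjusted p was 0.11 (Hspd1), 4 with the decimals as a block (5.19%, against 8.15%) and 5 within the 7-decimal arrays (6.49%, against 10.5%). They were 13 with hair follicle markers in the fit (16.9%, against 11.6%) and 10 with plain _at probe sets only (16.4%, against 9.45%). The filter at the 60th percentile gave 9 (15.8%, against 9.63%), and median centring 7 (9.09%, against 9.52%). With 1 mouse left out they ran from 4 (5.19%, against 7.55%, without knockout 2) to 11 (14.3%). The count was 11 without knockout 3 (against 10.9%) or wild type 2 (against 9.69%). Without knockout 1, knockout 5, wild type 3 or wild type 4 it was 5 (6.49%), against 7.47%, 7.39%, 6.46% and 9.23%. Members without overlap were 2 after quantile normalization (against 3.41% of all probe sets) and 28 in the 7-decimal arrays (2 against 3 mice, 28.6% of all probe sets). With 1 mouse left out they ran from 1 to 10. They were 6 without wild type 1 (7.79%, against 6.39% of all probe sets), 5 without wild type 2 (6.49%, against 6.69%) and 4 without wild type 4 (5.19%, against 6.65%). Without knockout 4 there were 3 (3.90%, against 5.09%), and without wild type 3 there were 2 (2.60%, against 4.56%). Without knockout 1, 2 or 5 there was 1 (1.30%), against 4.28%, 4.44% and 4.27%. All probe sets passing limma numbered 7 at pseudocount 64, 9 with array weights, 10 in the 7-decimal arrays and 4 to 8 with 1 mouse left out. The replicate number was also used as a block, without knockout 5. Same-numbered mice did not deviate together, with correlations of 0.11, -0.01, -0.05 and 0.02. With this block 1 probe set passed over all, and 8 members (10.4%, against 7.98% of all probe sets) had an unadjusted p under 0.05. The cause of these shifts was not tested.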
